A study of Mus musculus with 15 samples.

Results

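Polycomb repressive complex 2 (PRC2) was followed through 10 of its genes, Ezh2, Ezh1, Eed, Suz12, Rbbp4, Rbbp7, Mtf2, Phf19, Jarid2 and Aebp2, among the 55367 gene symbols of the count table. Each was found by its symbol. The series holds 15 samples of mouse medial cortex, the part of the embryonic forebrain wall next to the midline, from C57BL/6 embryos at E11.5 (days of embryonic development). Of these, 6 bulk RNA libraries came from cells that bound annexin V and excluded propidium iodide (PI), called AnnexinV-positive here, and 6 from cells negative for both stains, called double-negative. Annexin V labels cells that expose the lipid phosphatidylserine, and PI stains DNA once a cell's membrane has ruptured. The labels give no treatment and no engineered allele for either group, and they do not say how many embryos went into a library or whether libraries came from separate sorts, so the spread between libraries may be in part technical. A further 3 samples have no label for the sort and are not analysed here.

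PRC2 adds methyl groups to lysine 27 of histone H3, a mark of genes kept silent. EZH2 or its paralog EZH1 carries the catalytic domain, and neither is active without EED, which reads the methylated histone tail and stimulates the enzyme, and SUZ12, the scaffold on which the other subunits assemble. In the developing cortex the complex is known for holding neural progenitors on their schedule of dividing and then making neurons.

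Of the 8 tested genes, Eed had the largest difference between the sorted groups. It was expressed in every AnnexinV-positive library at a level above every double-negative library, while the catalytic, scaffold and histone-binding partners overlapped between the groups. Overlap was usual, since 2.58% of all tested genes had groups that did not overlap in either direction, so nothing is read from that of the partners. In bulk RNA, fewer cells of a type and less RNA per cell cannot be told apart. The genes were selected on the counts of this same comparison, with Eed known to be among its calls, so the sort differences of the 10 genes are given as a description and carry no p-value. A total of 8 genes passed the filter on low counts. Ezh1, with 27 counts over the 12 libraries, and Phf19, with 13, did not. Eed passed through its AnnexinV-positive libraries. With edgeR's quasi-likelihood test over the 3800 tested genes, 1 of the 8 genes, Eed, was past an adjusted p of 0.05 as higher, where 0.395% of all tested genes were, and 0 were lower, where 1.47% of all tested genes were. In either direction the share of all tested genes past the threshold was 1.87%. These shares are the background and nothing is read from the count of 1. The median log2 fold change (AnnexinV-positive minus double-negative) was 0.35 over the 8 genes and 0.06 over all tested genes, and 5 of the 8 were positive, against 53.3% of all tested genes. The median of the 8 was 0.06 when double-negative libraries 3 and 5 were left out and 0.10 when libraries 1 to 3 of that group were. Leaving out single double-negative libraries gave 0.20 without library 1, 0.19 without library 3, 0.55 without library 4, 0.19 without library 5 and 0.68 without library 6.

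**Figure D1:**
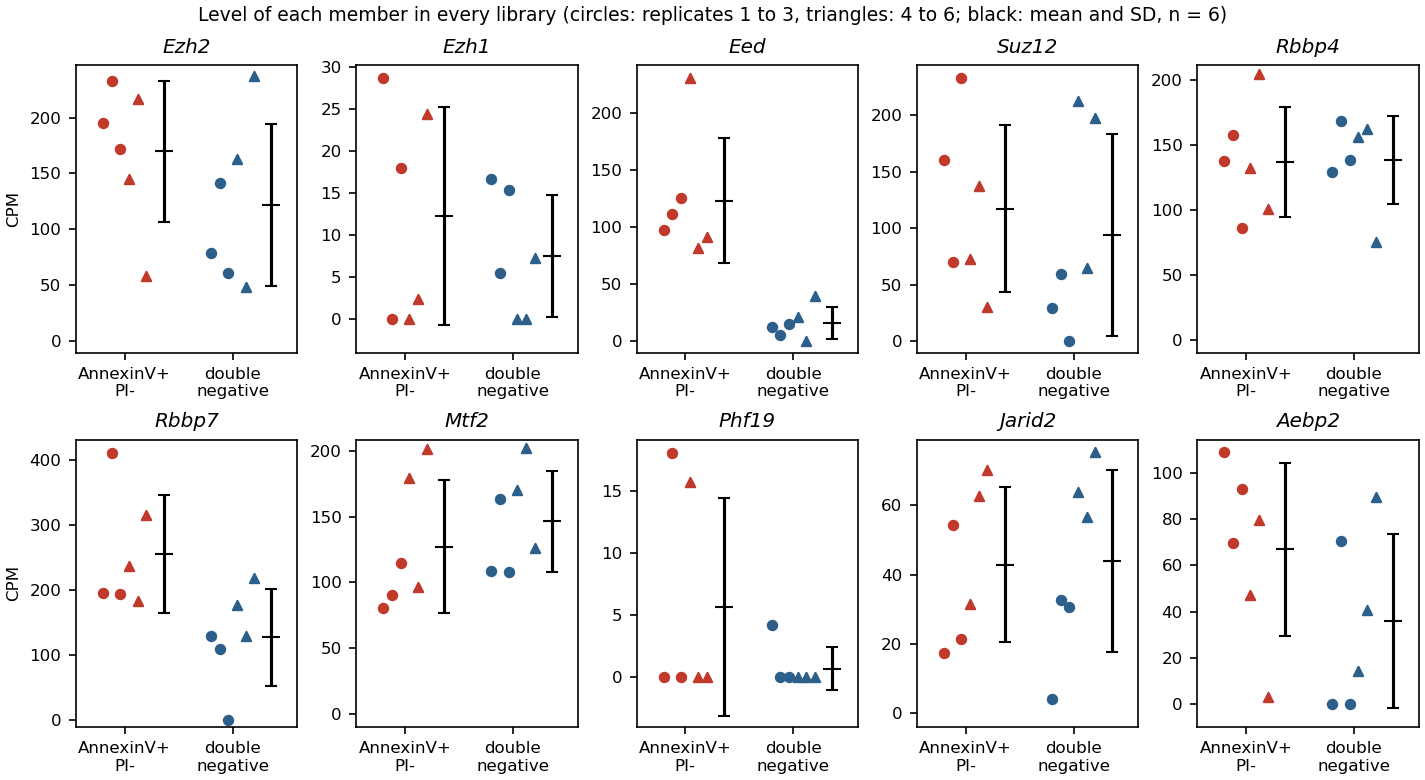
Level of each PRC2 gene in counts per 1000000 counts (CPM) in the 6 AnnexinV-positive libraries (red, left) and the 6 double-negative libraries (blue, right); circles are replicates 1 to 3, triangles replicates 4 to 6, and black marks give the mean and SD. Eed lies between 81.97 and 230.2 CPM in AnnexinV-positive libraries and at most at 39.55 CPM in double-negative libraries. The other 9 genes overlap, as most genes do: the groups fail to overlap for 2.58% of all tested genes. Ezh1 and Phf19 had too few counts to be tested.

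The libraries were shallow, which sets how firmly each gene can be described. Total counts ran from 190694 to 444412 in AnnexinV-positive libraries and from 88193 to 329813 in double-negative libraries. A single count was worth between 2.41 and 5.74 CPM in AnnexinV-positive libraries and between 3.596 and 15.4 CPM in double-negative libraries, on library sizes scaled with TMM factors (trimmed mean of M values). Haemoglobin genes took at least 12% of the counts of double-negative libraries 1 to 3 and at most 0.00964% of any other library. Double-negative libraries 3 and 5 had the fewest detected genes, 6571 and 6759, against 8100 to 10065 in the other 10 libraries. The limits that a count of 0 allows cover counting error only.

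Eed encodes the subunit that binds trimethylated lysine 27 of histone H3. On GRCm38 it lies on the minus strand of chromosome 7 at 89954654 to 89980983 and is protein-coding. Its level was 81.97 CPM at the lowest, 104.3 at the median and 230.2 at the highest in AnnexinV-positive libraries, against 0, 13.9 and 39.55 CPM in double-negative libraries. The groups did not overlap, which held for 1.34% of all tested genes in the same direction. In whole counts Eed had 232 in AnnexinV-positive libraries and 19 in double-negative libraries, of which 11 were in double-negative library 6. Double-negative library 5 had 0 counts, which allows up to 24.3 CPM there. The mean was 123 ± 54.7 CPM in AnnexinV-positive libraries and 15.7 ± 13.9 CPM in the double-negative group (SD, n = 6 each), and the log2 fold change was 2.84 (SE 0.65).

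AnnexinV-positive library 4 held the highest Eed level, and without it the log2 fold change was 2.58 (SE 0.72) and Eed was no longer past the threshold. The call was also lost without double-negative libraries 3 and 5 (2.54, SE 0.64), without double-negative libraries 1 to 3 (2.40, SE 0.75), and in each set of replicates alone. Over all 27 alternatives, which reuse the counts that chose Eed, the log2 fold change lay between 2.40 and 3.46. On the deposited table named TPM Eed stood between 66.1 and 164 in AnnexinV-positive libraries and between 0 and 21.8 in double-negative libraries.

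The ratio of Eed to Ezh2 counts within a library does not depend on how libraries are scaled to each other. This ratio was between 0.378 and 1.59 in AnnexinV-positive libraries, with a median of 0.615, against 0 to 0.25 in double-negative libraries, with a median of 0.144. The groups did not overlap in this ratio, which reuses the counts that chose Eed. Over pooled counts, Eed had 0.71 counts per Ezh2 count in AnnexinV-positive libraries and 0.132 in double-negative libraries. The highest double-negative ratio rests on 1 Eed count and 4 Ezh2 counts in library 3. The ratio of Eed to Rbbp4 counts did overlap between the groups. It was 0.4 to 1.74 in AnnexinV-positive libraries and 0 to 0.524 in double-negative libraries.

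Promoter sequence is shown for Eed and for its core partners Ezh2 and Suz12, whose levels overlapped between the groups, so that the windows in front of these genes can be read side by side. Each line is the 250 bases before the start site in the RefSeq promoter table of GRCm38.p6, which held an entry for all 10 genes. The windows are chr7:89980977-89981226 on the minus strand for Eed, chr6:47595031-47595280 on the minus strand for Ezh2, and chr11:79992856-79993105 on the plus strand for Suz12. Capitals mark a CCAAT box (CCAAT, or ATTGG on the other strand) or an E2F word (TTTCCCGC or TTTGGCGC, or either on the other strand).
Eed: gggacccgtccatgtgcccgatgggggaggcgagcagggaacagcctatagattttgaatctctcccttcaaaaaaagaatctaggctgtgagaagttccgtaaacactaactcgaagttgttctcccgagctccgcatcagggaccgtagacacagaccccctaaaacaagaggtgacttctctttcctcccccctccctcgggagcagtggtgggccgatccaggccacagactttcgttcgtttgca
Ezh2: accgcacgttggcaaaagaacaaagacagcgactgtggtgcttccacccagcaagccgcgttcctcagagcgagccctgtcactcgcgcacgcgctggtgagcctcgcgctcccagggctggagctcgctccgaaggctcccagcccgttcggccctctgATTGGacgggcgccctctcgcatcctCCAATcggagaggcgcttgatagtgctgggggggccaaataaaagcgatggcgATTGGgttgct
Suz12: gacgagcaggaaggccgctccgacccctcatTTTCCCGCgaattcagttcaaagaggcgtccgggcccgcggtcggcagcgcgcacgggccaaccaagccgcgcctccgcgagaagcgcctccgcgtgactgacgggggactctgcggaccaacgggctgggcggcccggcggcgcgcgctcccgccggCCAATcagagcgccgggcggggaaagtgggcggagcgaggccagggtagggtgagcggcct
The Eed window holds no match to either motif. The Ezh2 window holds CCAAT boxes starting at -90, -64 and -11 from the start site, and the Suz12 window holds a CCAAT box at -61 and the E2F word TTTCCCGC at -219. Over the 32851 promoter windows of this length in the table, 33.8% hold a CCAAT box and 1.3% hold an E2F word. The number of CG pairs was 12 in the Eed window, 23 in the Ezh2 window and 37 in the Suz12 window, where the median of all windows was 6. A match is a string of letters and not a shown binding site, and a missing match says nothing of the factors.

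Ezh2, the main catalytic subunit of dividing cells, lies on the minus strand of chromosome 6 at 47530139 to 47595341. Its level was 58.03 CPM at the lowest, 183.6 at the median and 232.6 at the highest in AnnexinV-positive libraries, against 48.57, 110.3 and 237.3 CPM in double-negative libraries. Of the AnnexinV-positive libraries 5 of 6 lay above the double-negative median, and the highest value of all was double-negative library 6. The log2 fold change was 0.44 (SE 0.43), about the size of its error, and it was 0.09 (SE 0.42) without double-negative libraries 3 and 5.

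Ezh1, the paralog that is more common in resting cells, lies on chromosome 11 at 101191115 to 101226463. It had 19 counts in AnnexinV-positive libraries, in 4 of 6, and 8 counts in double-negative libraries, in 4 of 6. Its level was at most 28.7 CPM in AnnexinV-positive libraries and at most 16.7 CPM in double-negative libraries, too few counts for a comparison at this depth.

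Suz12, the scaffold subunit, lies on the plus strand of chromosome 11 at 79993106 to 80034123. Its level ran from 30.5 through a median of 105 to 232.8 CPM in AnnexinV-positive libraries, against 0, 62.3 and 213 CPM in double-negative libraries. The log2 fold change was 0.26 (SE 0.61), and its sign changed in 4 of 27 alternatives. Double-negative library 3 had 0 Suz12 counts, which allows up to 46.1 CPM in that library.

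Rbbp4 and Rbbp7 encode near-identical histone-binding proteins that PRC2 shares with other chromatin complexes. Rbbp7, on chromosome X at 162760402 to 162779092, stood at 183.2 CPM at the lowest, 215.8 at the median and 410.8 at the highest in AnnexinV-positive libraries, against 0, 129 and 219.3 CPM in double-negative libraries. All 6 AnnexinV-positive libraries lay above the double-negative median, but double-negative library 6 reached into their range. Its log2 fold change was 0.95 (SE 0.42). Over the 27 alternatives, which reuse the same counts, it lay between 0.42 and 1.91 and passed the threshold in 0. Rbbp4, on chromosome 4 at 129307100 to 129335370, had a log2 fold change of -0.01 (SE 0.38), with an approximate 95% interval of -0.75 to 0.74. Its range was 85.97 to 204.9 CPM in AnnexinV-positive libraries and 75.5 to 168.7 CPM in double-negative libraries. The ratio of Rbbp7 to Rbbp4 counts within a library was 0.894 to 3.12 in AnnexinV-positive libraries and 0 to 2.91 in double-negative libraries, and overlapped.

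Mtf2 and Phf19 encode Polycomb-like proteins, which bind DNA rich in CG pairs and define the form of the complex called PRC2.1. Mtf2, on chromosome 5 at 108065674 to 108109004, ran from 80.4 through a median of 105.5 to 201.6 CPM in AnnexinV-positive libraries, against 107.5, 144.6 and 202.4 CPM in double-negative libraries. The groups overlapped over most of their range, and the log2 fold change was -0.20 (SE 0.38). Phf19, on chromosome 2 at 34893757 to 34914026, had 12 counts in AnnexinV-positive libraries, in libraries 2 and 4, and 1 count in double-negative libraries. In the other 4 AnnexinV-positive libraries it had 0 counts.

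Jarid2 and Aebp2 define the other form, PRC2.2. JARID2 recruits the complex to chromatin and AEBP2 is a zinc finger protein that stabilises it. Jarid2, on chromosome 13 at 44729474 to 44921643, ran from 17.2 through a median of 42.9 to 70.2 CPM in AnnexinV-positive libraries, against 4.17, 44.7 and 75.5 CPM in double-negative libraries. Its log2 fold change was -0.02 (SE 0.70), with an approximate 95% interval of -1.41 to 1.36 that also covers a difference of 2-fold either way. Aebp2, on chromosome 6 at 140622663 to 140678472, had 0.80 (SE 0.81), with 121 counts in AnnexinV-positive libraries and 45 in double-negative libraries. It was at 3.05 CPM in AnnexinV-positive library 6 and at 0 counts in double-negative libraries 1 and 3, so each group held libraries near the floor.

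**Figure D2:**
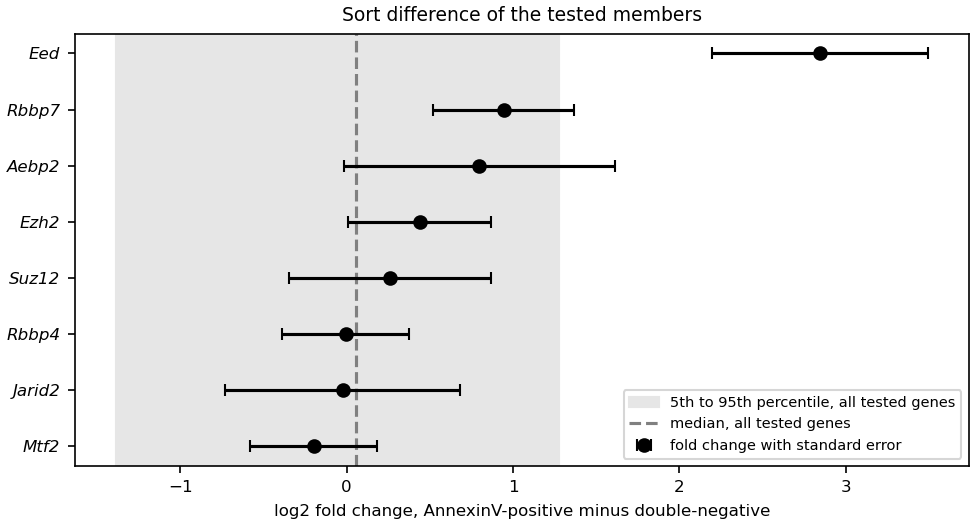
Log2 fold change of the 8 tested PRC2 genes on the horizontal axis, AnnexinV-positive minus double-negative, with its standard error; the grey band spans the 5th to 95th percentile of all 3800 tested genes (-1.39 to 1.27) and the dashed line is their median. Eed lies outside the band at 2.84 and the other 7 lie inside it, between -0.20 and 0.95.

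To compare levels between genes, CPM was divided by the annotated exon length in kilobases (kb), counting each exon base once. In AnnexinV-positive libraries Eed was the second of the 10 genes on this scale, at 32.1 ± 14.3 CPM per kb, and in double-negative libraries it was number 7, at 4.10 ± 3.62 CPM per kb (SD, n = 6 each). Rbbp7 was the first in both groups, at 87.9 ± 31.0 CPM per kb in AnnexinV-positive libraries and 43.8 ± 25.5 CPM per kb in the double-negative group. The catalytic and scaffold genes stood close together. Ezh2 was at 25.4 ± 9.45 CPM per kb in AnnexinV-positive libraries and 18.2 ± 10.9 CPM per kb in the double-negative group, and Suz12 at 23.7 ± 14.98 and 19.0 ± 18.1 CPM per kb in the same groups. In AnnexinV-positive libraries the neighbours in this order whose mean ± SD ranges did not overlap were Rbbp7 with Eed and Rbbp4 with Aebp2. In double-negative libraries they were Rbbp4 with Jarid2. Ezh1 and Phf19 were the lowest in both groups, at 1.65 and 1.12 CPM per kb in AnnexinV-positive libraries and 1 and 0.138 CPM per kb in the double-negative group.

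The count table lists replicates 1 to 3 of both groups before replicates 4 to 6, and the labels do not say how these sets differ. They give a comparison that the choice of genes did not use. Replicates 4 to 6 were compared with replicates 1 to 3 in a model that also holds the sort group. In edgeR's quasi-likelihood test 0 of the 8 genes passed, where 0.158% of all tested genes did, with adjusted p between 0.733 and 0.995, and 0 of 8 had an unadjusted p under 0.05, where 8.21% of all tested genes did. Jarid2 had the largest value, a log2 difference of 1.16 (SE 0.70, adjusted p = 0.733 in edgeR) between replicates 4 to 6 and replicates 1 to 3. It stood at 54.8 ± 20.5 CPM in AnnexinV-positive libraries and 65.3 ± 9.51 CPM in the double-negative group of replicates 4 to 6, and at 31.0 ± 20.3 CPM in AnnexinV-positive libraries and 22.5 ± 15.9 CPM in the double-negative group of replicates 1 to 3 (SD, n = 3 each).

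Within each set the sort difference took other values, and no gene's change between the sets passed a test. The median log2 fold change of the 8 genes was -0.13 in replicates 4 to 6 alone and 1.32 in replicates 1 to 3 alone, where the medians of all tested genes were 0.04 and 0.05. Suz12 had the widest gap, with -1.02 (SE 0.70) within replicates 4 to 6 and 2.17 (SE 0.82) within replicates 1 to 3. It averaged 80.2 ± 53.9 CPM in AnnexinV-positive libraries and 158 ± 81.5 CPM in the double-negative group of replicates 4 to 6, against 154 ± 81.7 CPM in AnnexinV-positive libraries and 29.7 ± 29.9 CPM in the double-negative group of replicates 1 to 3 (SD, n = 3 each). Double-negative libraries 1 to 3 are those with the haemoglobin counts, and the part of that in the difference between sets was not tested. The difference between these effects, tested as an interaction, was -3.15 (SE 1.11) and did not pass (adjusted p = 0.531 in edgeR). Over the 8 genes 0 passed this test, against 0.0789% of all tested genes, and 1, Suz12, had an unadjusted p under 0.05, against 6.29% of all tested genes. Eed was at 2.53 (SE 0.94) within replicates 4 to 6 and 3.36 (SE 0.90) within replicates 1 to 3. Its groups overlapped in neither set, which follows from the lack of overlap over all libraries and adds nothing to it. The interaction of Eed was -0.79 (SE 1.29, adjusted p = 0.998 in edgeR). Ezh2 had -0.16 (SE 0.65) and Rbbp7 0.42 (SE 0.45) within replicates 4 to 6, against 1.04 (SE 0.52) and 1.59 (SE 0.66) within replicates 1 to 3.

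**Figure D3:**
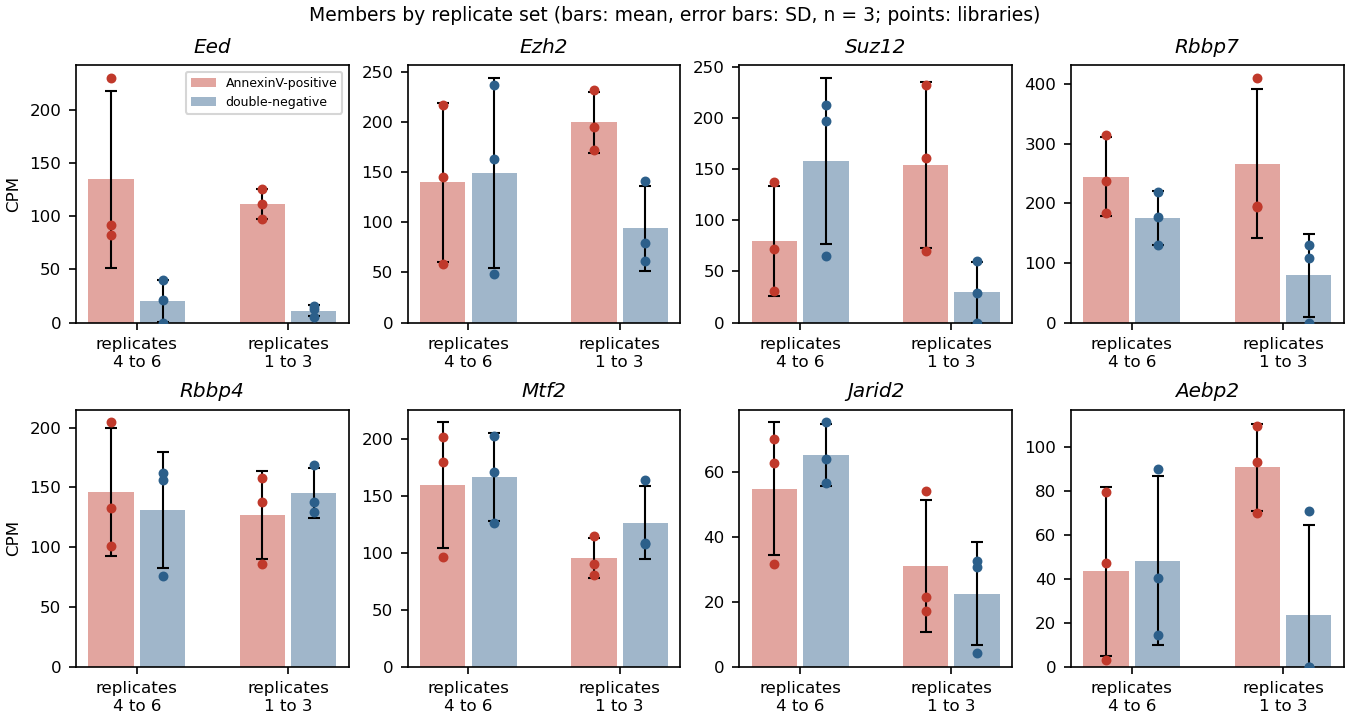
Level in CPM of the 8 tested PRC2 genes in replicates 4 to 6 (left pair of bars) and replicates 1 to 3 (right pair), AnnexinV-positive in red and double-negative in blue; bars are means, error bars SD (n = 3) and points libraries. Eed does not overlap between the groups in either set, which follows from its lack of overlap over all libraries. Suz12 averages 80.2 CPM for AnnexinV-positive against 158 CPM for double-negative cells of replicates 4 to 6. In replicates 1 to 3 it averages 154 CPM for AnnexinV-positive against 29.7 CPM for double-negative cells.

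Correlations among the tested PRC2 genes were mixed in sign. Over the 28 pairs of the 8 genes, Spearman's correlation of log2 CPM over the 12 libraries had a median of 0.112 and was positive for 15 pairs. The highest was 0.783 between Eed and Rbbp7 and the lowest -0.594 between Ezh2 and Mtf2. These values describe 12 libraries that differ in depth and sort group. Within each group of 6 libraries, Eed and Rbbp7 had 0.257 in AnnexinV-positive libraries and 0.486 in the double-negative group.

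The genes most like Eed over the 12 libraries, out of 3673 candidates, were Kpna4, a nuclear import receptor (Spearman's correlation 0.937), Hmox2, a haem oxygenase (0.937), Mtx1, a mitochondrial import protein (0.932), Pfas, an enzyme of purine synthesis (0.909), and Gcsh of the glycine cleavage system (0.888). Their log2 fold changes were 1.09 (SE 0.51), 2.96 (SE 0.89), 1.93 (SE 0.79), 1.15 (SE 0.41) and 2.22 (SE 0.55), in the same order. Those most like Ezh2 were Topbp1, a DNA replication and checkpoint protein (0.86), Wbp11, a splicing protein (0.86), Ccp110 of the centriole (0.848), the splicing factor Srsf1 (0.839), and Atp1b3, a sodium pump subunit (0.832). The log2 fold changes of these 5 genes lay between 0.02 and 0.99. Both rankings run over the sort groups together, so a shared sort difference can raise a correlation. They are the top of many candidates and describe these 12 libraries only.

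The cells sorted into the groups also differed in markers of cell type and of the cell cycle. Of all tested genes, 0.395% were called higher, 1.47% were called lower and 53.3% had a positive log2 fold change. Of 15 tested cycling markers 2 rose in AnnexinV-positive cells by edgeR's test, Mki67 by 1.52 and Cenpf by 2.01 on the log2 scale, and 15 of 15 were positive. Their summed level was 2608 to 4013 CPM in AnnexinV-positive libraries and 215 to 2275 CPM in double-negative libraries. Radial glia markers, which label the neural progenitors of this tissue, summed to 2555 to 3163 CPM in AnnexinV-positive libraries and 753 to 2370 CPM in the double-negative group. Of 11 tested members 1, Hmga2, was higher by 2.14 on the log2 scale, and 10 did not pass. The marker lists were chosen with earlier results of these data known. Neuronal markers summed to 302 to 941 CPM in AnnexinV-positive libraries and 1874 to 4362 CPM in the double-negative group, and 6 of 9 tested members fell (Dcx, Stmn2, Myt1l, Ina, Map2 and Elavl3). The progenitor factors Sox2 and Pax6, also on the radial glia list, had counts in each of the 12 libraries and negative log2 fold changes, -0.50 (SE 0.40) for Sox2 and -0.03 (SE 0.53) for Pax6. Sox2 averaged 113.3 CPM in AnnexinV-positive libraries and 161.4 CPM in the double-negative group. The part of these differences in the Eed result was not tested.

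Markers of cells from outside the neural tissue were uneven too. Of 20 endothelial, mesenchymal and macrophage markers, 11, 0, 8, 3, 7 and 11 were detected in AnnexinV-positive libraries 1 to 6, with a summed level of 0 to 1188 CPM, against 0 to 2 markers and 0 to 74.99 CPM in double-negative libraries. The defining markers Pecam1, Cdh5 and Kdr of vessels and Col1a1, Col3a1 and Pdgfra of mesenchyme had 0 counts in all 6 double-negative libraries. AnnexinV-positive library 2 had 0 counts of all 20 markers and 111 CPM of Eed. Blood markers summed to 0 to 93.1 CPM in AnnexinV-positive libraries, to 0 to 8.09 CPM in double-negative libraries 4 to 6 and to 153300 to 538800 CPM in double-negative libraries 1 to 3. Eed was at 0 to 39.55 CPM in double-negative libraries 4 to 6 and at 5.44 to 15.4 CPM in double-negative libraries 1 to 3. The part of blood and other non-neural cells in the Eed difference was not tested.

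**Figure D4:**
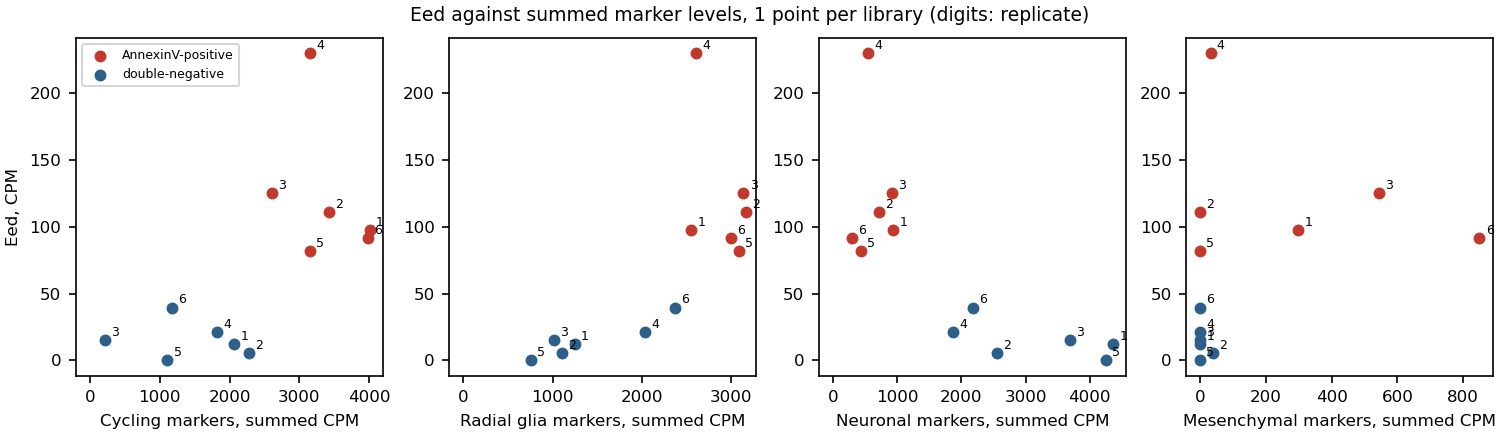
Eed in CPM (vertical axis) against the summed CPM of 4 marker lists (horizontal axes), with 1 point per library, AnnexinV-positive in red and double-negative in blue, and digits giving the replicate. The groups separate in Eed and in the cycling, radial glia and neuronal sums, while AnnexinV-positive libraries 2 and 5 have 0 mesenchymal counts.

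Beyond the 10 genes, related genes of the wider Polycomb machinery were described in the same comparison. Over 7 lists of related genes, 48 of 79 entries were tested and 0 passed in edgeR's quasi-likelihood test, where 1.87% of all tested genes did. A count of 0 of 48 is near that share, and nothing is read from it. Of the 48 genes 5 (Lcor, Dpy30, Kmt2c, Auts2 and Kdm6b) had an unadjusted p under 0.05, where 15.7% of all tested genes did. DESeq2 called 0 of the 48, where it called 281 among all tested genes. On the deposited table named TPM, limma called 0 with a pseudocount of 1 and 1, Dpy30, with a pseudocount of 10. Among all tested genes limma called 32 and 137 with these pseudocounts. Nothing is read from these counts either. The median log2 fold change of the 48 was -0.05, and 23 were positive.

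Among further PRC2 partners, 2 of 6 entries were tested. Lcor, whose locus encodes the PRC2.1 partner PALI1, had -1.60 (SE 0.58, adjusted p = 0.162 in edgeR), with 42.7 CPM on average in AnnexinV-positive libraries and 131 CPM in the double-negative group. Its paralog Lcorl had -0.72 (SE 0.56, adjusted p = 0.590 in edgeR). Lcor was at -0.13 within replicates 4 to 6 and at -2.49 within replicates 1 to 3, and passed in 1 of 27 alternatives. The entry Ezhip was not matched to a symbol of the table and is not analysed here.

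PRC1, the complex that ubiquitinates histone H2A and binds the mark that PRC2 makes, had 4 of 8 catalytic and PCGF genes tested, with a median of -0.41 and 1 positive. Its catalytic subunit Rnf2 was the positive gene. Pcgf3 had -0.56 (SE 0.69), Pcgf6 -0.57 (SE 0.73) and Bmi1 -0.25 (SE 0.79) (adjusted p in edgeR 0.743, 0.755 and 0.911). The sign of Bmi1 changed in 8 of 27 alternatives. Of the chromobox and polyhomeotic genes 4 of 10 were tested (median 0.00), with Phc1 at -1.63 (SE 0.81), Phc3 at 0.65 (SE 0.73) and Phc2 at 0.20 (SE 0.49) (adjusted p in edgeR 0.334, 0.714 and 0.876). Of the partners of non-canonical PRC1 7 of 14 were tested (median -0.01). Auts2, which is active in young neurons, had -0.88 (SE 0.38), the deubiquitinase gene Usp7 0.92 (SE 0.56) and Skp1a 0.36 (SE 0.29) (adjusted p in edgeR 0.247, 0.452 and 0.599).

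The lists also cover enzymes that remove or oppose the mark. Of the H3K27 demethylases and the H2A deubiquitinase complex 5 of 6 genes were tested (median -0.28). The demethylase gene Kdm6b had -0.80 (SE 0.36, adjusted p = 0.283 in edgeR), at 251 CPM on average in AnnexinV-positive libraries and 437 CPM in the double-negative group. Its relative Kdm6a had -0.49 (SE 0.75) and Asxl1 0.48 (SE 0.52) (adjusted p in edgeR 0.792 and 0.707). Of the methyltransferases of histone H3 lysines 36 and 4 and their subunits 10 of 14 were tested (median -0.16). Dpy30, a subunit shared by the lysine 4 enzymes, had 1.75 (SE 0.61, adjusted p = 0.139 in edgeR) and passed in 2 of 27 alternatives, while Kmt2c had -0.85 (SE 0.34) and Nsd2 -0.58 (SE 0.35) (adjusted p in edgeR 0.210 and 0.438).

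Genes of the other complexes that hold Rbbp4 and Rbbp7, such as the NuRD deacetylase complex, the SIN3 complex and the chromatin assembly factor, had a median of 0.37 over 16 tested of 21, with 11 positive. Mta1 and Gatad2a, both of NuRD, had 1.48 (SE 0.79) and 1.27 (SE 0.69), and Sin3a had 0.97 (SE 0.65) (adjusted p in edgeR 0.375, 0.386 and 0.504).

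**Figure D5:**
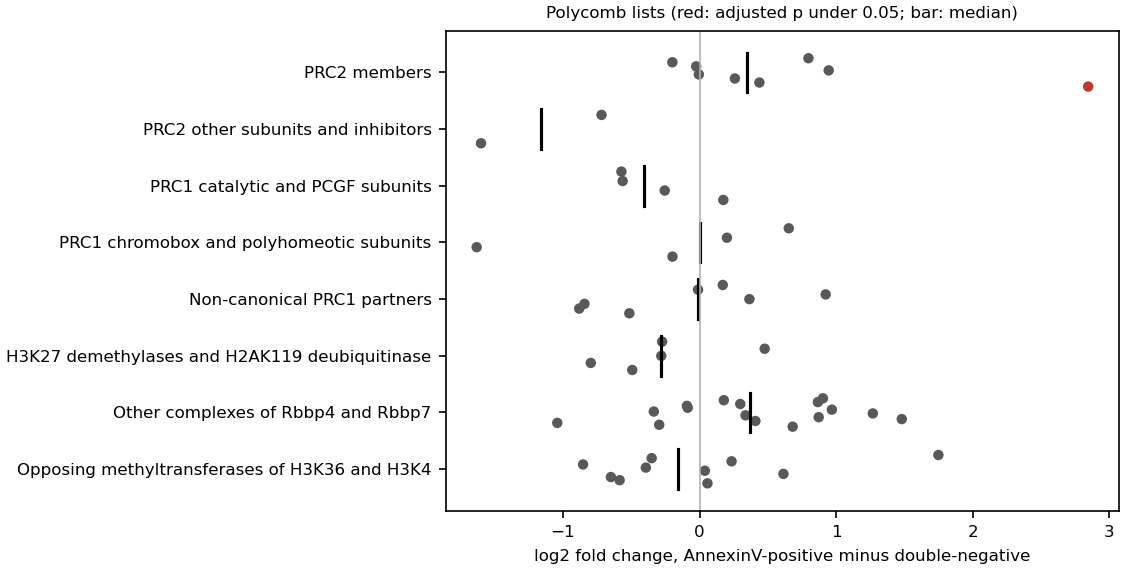
Log2 fold change (AnnexinV-positive minus double-negative, horizontal axis) of the tested genes of the PRC2 gene set and of 7 related lists; each point is a gene, black bars are list medians and red marks an adjusted p under 0.05. Eed is the single red point, at 2.84.

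Most of the genes that Polycomb is known to hold silent outside their own tissues had no counts in either group, with Isl1 an exception in double-negative cells. Of 39 Hox genes, which pattern the body axis behind the forebrain, 38 had 0 counts in all 12 libraries, and Hoxd12 had 3 counts in AnnexinV-positive library 4. A count of 0 allows between 7.23 and 17.2 CPM per gene in AnnexinV-positive libraries and between 10.8 and 46.1 CPM in double-negative libraries. Of 33 other textbook targets 30 had 0 counts throughout, among them Cdkn2a, Gata4 and Foxa2. Isl1, a transcription factor of motor and ventral forebrain neurons, had 6 counts in 1 AnnexinV-positive library and 57 counts in 5 double-negative libraries, where its highest level was 234.3 CPM. Twist1, a mesenchymal factor, had 6 counts in 1 AnnexinV-positive library and 0 in double-negative libraries. Olig2 had 3 counts in 1 AnnexinV-positive library and 3 counts in 1 double-negative library. None of these genes was deep enough to be tested.

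Read assignment could touch some of the 10 genes. Only 2 of their 120 values were not whole numbers. The share of a gene's 50-base words that also occurs in transcripts of other genes was 17.2% for Rbbp4, 11.2% for Rbbp7, 5.82% for Eed, 5.56% for Mtf2 and at most 2.6% for the other 6. For Eed, 212 of its 228 shared words lay in E230029C05Rik, a noncoding gene on the opposite strand that had 7 counts over the 12 libraries against 251 for Eed. For Mtf2, 347 of 348 were shared with Tmed5, which overlaps its end on the opposite strand and had 196 counts. Whether counting used strand is not given in the sources used here, so reads in these overlaps cannot be assigned with certainty.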

How the data were processed

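Bulk libraries were made with a modified smart-seq2 method, per the labels' protocols. Trimmomatic, STAR, featureCounts and Seurat 4 and the builds GRCm38 and mm10 are named in the submitters' processing notes, with no role given. The deposited count table holds estimated counts, since 8.84% of nonzero values were not whole; they were rounded, although the planned design assumed counts. The deposited table named TPM sums to 764764 to 1835685 per library, so it was treated as a score and entered alternatives only. Of the symbols, 53365 of 55367 matched GENCODE M21 on GRCm38. The main test was edgeR 4.0.16 (R 4.3.3) with glmQLFit and glmQLFTest, filterByExpr (minimum count 10, total 15), TMM, robust dispersion, two-sided, Benjamini-Hochberg adjustment and a threshold of 0.05; it was tested on simulated data. DESeq2 1.42.0 and limma 3.58.1 were alternatives. SE is the fold change over the root of F; log2 CPM used a prior count of 2. All fits on fewer libraries kept the same 3800 genes. The members and lists were chosen with earlier results of these data known. Named were all members, of each other list the genes past the threshold or up to 3 with the smallest p, and the 5 genes most like Eed and Ezh2 each. Libraries of a group differed by more than sampling noise (chi-square per degree of freedom 4.44 to 30.1).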

Additional observations from a re-analysis of the deposited data

Results flagged for a closer look

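Eed in AnnexinV-positive library 4, at 230.2 CPM from 73 counts, stood farther from the other 5 libraries of its group than Dixon's test at 95% allows. Phf19 in double-negative library 1, at 4.17 CPM, was marked by the same test, on 1 count where the other 5 libraries had 0. A total of 20 groups was examined in this way, and chance marks about 1 in 20.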

How the results depend on the processing

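Over the alternatives run, 419 values of the 8 tested PRC2 genes kept their direction and side of the threshold or moved by less than the spread between libraries, 15 of the set difference and the interaction changed sign, 5 (all of Eed) lost the call and 1 (Suz12) moved further. The number of genes called between the sorted groups, 71 with 15 higher and 56 lower, was 237 with no filter, 21 in replicates 4 to 6 alone, 42 without double-negative replicates 1 to 3, 13 without double-negative replicates 3 and 5, 281 in DESeq2 (88 higher, 193 lower), and 32 (17 higher, 15 lower) and 137 (93 higher, 44 lower) in limma on the deposited table named TPM with pseudocounts of 1 and 10. Upper-quartile scaling gave 42 higher and 55 lower, and total counts without rRNA and haemoglobin genes 24 higher and 55 lower. Leaving out 1 library gave 46 (without double-negative replicate 3) to 117 (without double-negative replicate 4). Between replicate sets 6 genes were called, 55 with no filter and 4 to 17 without 1 library (17 without double-negative replicate 5). For the difference of the sort effect 3 were called, 13 with no filter and 2 to 4 without 1 library. The median of all tested genes was 0.06, and 0.42 and 0.25 on the table named TPM. With the replicate block 71 genes were called, 56 of them shared with the fit without it, and Eed had 3.09. Same-numbered libraries had correlations of -0.01 to 0.08, and 2 of 6 AnnexinV-positive libraries correlated best with their own number. The highest correlation of any AnnexinV-positive with any double-negative library was 0.106. With values this low in shallow libraries, the check cannot show whether the numbers pair the libraries.

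Sign changes of values that were not called follow. The sort difference changed sign in 15 of 27 alternatives each for Rbbp4 and Jarid2, 4 for Suz12, 2 for Mtf2 and 1 each for Ezh2 and Aebp2. Bmi1 was 0.43 with the replicate block, 0.0276 with replicate set as a term, 1.54 in replicates 4 to 6 alone, 1.29 without double-negative replicates 1 to 3, 1.19 and 0.43 on the table named TPM, and -0.55 to 0.45 when 1 library was left out. Phc2 was -0.046 without double-negative replicates 3 and 5. Leaving out 1 library, the set difference ran from -0.23 to 0.31 for Ezh2, from -0.15 to 0.19 for Rbbp4 and from -0.61 to 0.35 for Aebp2, and the interaction of Eed from -1.43 to 0.17. The causes were not tested. Depth limits Ezh1 and Phf19.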
